A study of Drosophila melanogaster with 2 samples.

Results

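Genes of lipid digestion, storage and synthesis were followed through the cell classes of the young adult fly midgut. The 10 genes are mag and Npc1b (digestion and uptake), Lsd-2 and bmm (lipid droplets), ACC and FASN1 (fatty acid synthesis), mdy and Mtp (triglyceride and lipoprotein assembly), and SREBP and Hnf4 (transcription factors). They were chosen by name, with earlier results of these data known, and all 10 were found among the 9607 genes of the deposited table. The cells were dissociated midgut epithelium of Drosophila melanogaster females of the wild type strain Canton S, profiled by droplet single-cell RNA sequencing with the Chromium v3.1 chemistry of 10x Genomics. The study held 2 libraries, 1 of flies 3 days old with 1473 cells and 1 of flies 1 day old with 2711 cells. Both ages shared the genotype and sex, and how many flies were pooled for each library is not given in the sources used here. Each age is 1 library without a replicate, so effects of age cannot be told apart from those of making the libraries. No test between the ages was therefore made and no p-value is given.

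In the gut, dietary triglyceride is split by secreted lipases, and the fatty acids are taken up by enterocytes, the absorptive cells. There they are rebuilt into triglyceride, stored in lipid droplets coated by perilipins, and exported on lipoproteins. Flies cannot make sterols and must absorb them from food, while fatty acids can also be made from acetyl-CoA inside the cell. Stem cells and their enteroblast daughters, which become enterocytes, also keep droplets and burn fatty acids.

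The library of day 3 held 58700717 UMIs (unique molecular identifiers, each marking 1 captured transcript) with a median of 32121 per cell, and that of day 1 held 86114751 with a median of 25935. Only 1 cell barcode occurred in both libraries. Classes are the 10 of the authors' deposited annotation: intestinal stem cells ISC1 and ISC2, enteroblasts EB1, EB2 and EB3, EC-like cells, enteroendocrine cells (hormone-secreting, AstC+EE and Tk+EE), and enterocytes of the anterior and posterior midgut (apEC) and of the middle midgut (mEC). The summed level of 11 enterocyte markers was 1306 per 10000 in apEC at day 3 and 1155 at day 1, and in the 5 stem cell and enteroblast classes it lay between 2.37 and 5.25. EC-like cells went against their name: their enterocyte markers summed to 4.74 at day 3 and 8.72 at day 1, while their 6 progenitor markers summed to 33.3 and 34.7, against 1.83 and 2.29 in apEC. In EB2 the progenitor markers summed to 8.41 at day 3 and 7.72 at day 1, against at least 21.6 in ISC1, ISC2, EB1 and EB3. The enteroendocrine classes had at least 15.9. The 7 enteroendocrine markers summed to between 179 and 1559 in the enteroendocrine classes, and to at most 1.84 elsewhere. The middle midgut list of 4 genes stood at 41.1 and 51.8 in mEC at day 3 and day 1, against at most 4.53 in any other class. Of the mEC sums, Vha100-4 alone gave 39.4 and 49.6, so they rest on 1 of the listed genes. The 4.53 was that of Tk+EE at day 3, where Ptx1 was the highest of the list with 2.48. Fat body markers, of interest because that tissue stores most fat, summed to at most 0.0630 in any class and library, from the 2 of 5 listed genes that had a value. Markers of 2 other tissues reached higher sums in apEC, for visceral muscle at day 1 alone. The 3 Malpighian tubule markers summed to 0.876 there at day 3, all of it Irk2, and 3.07 at day 1, against at most 0.0736 elsewhere. The 5 visceral muscle markers summed to 0.219 and 0.779 in apEC, of which Mlc2 alone gave 0.211 and 0.772. Elsewhere they summed to at most 0.284, the value of AstC+EE at day 3. Whether apEC included cells of other tissues was not tested. Classes differed in depth, from a median of 67953.5 UMIs per cell in EB2 at day 3 to 7758.5 in Tk+EE at day 1.

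Levels below are means over cells of the deposited depth-corrected counts, per 10000 of a cell's corrected total. The correction raises low values in shallow cells and lowers them in deep ones, so UMI counts rebuilt by inverting it are given beside the levels where they bear on a result. Rebuilt UMIs cover the shallower cells, namely the 2092 with at most 28085.5 UMIs, the median. Intervals of 95% are exact (Clopper-Pearson), for ratios of UMI sums too, and cover counting error only. The authors' classes were drawn from the same cells and genes, so levels across classes are a description and were not tested. Positions are those of the BDGP6 build, with Ensembl annotation release 115.

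The 10 genes differed in the classes that held them. The secreted lipase mag and the sterol transporter Npc1b were found in enterocytes of the anterior and posterior midgut. The droplet gene Lsd-2 was highest in EB1, and the droplet lipase bmm was among the highest there but low in EB2. FASN1, SREBP and Hnf4 were spread over stem cells, enteroblasts and enteroendocrine cells and were lowest in enterocytes. ACC was highest in EB2, and mdy and Mtp were close to 0 throughout.

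**Figure D1:**
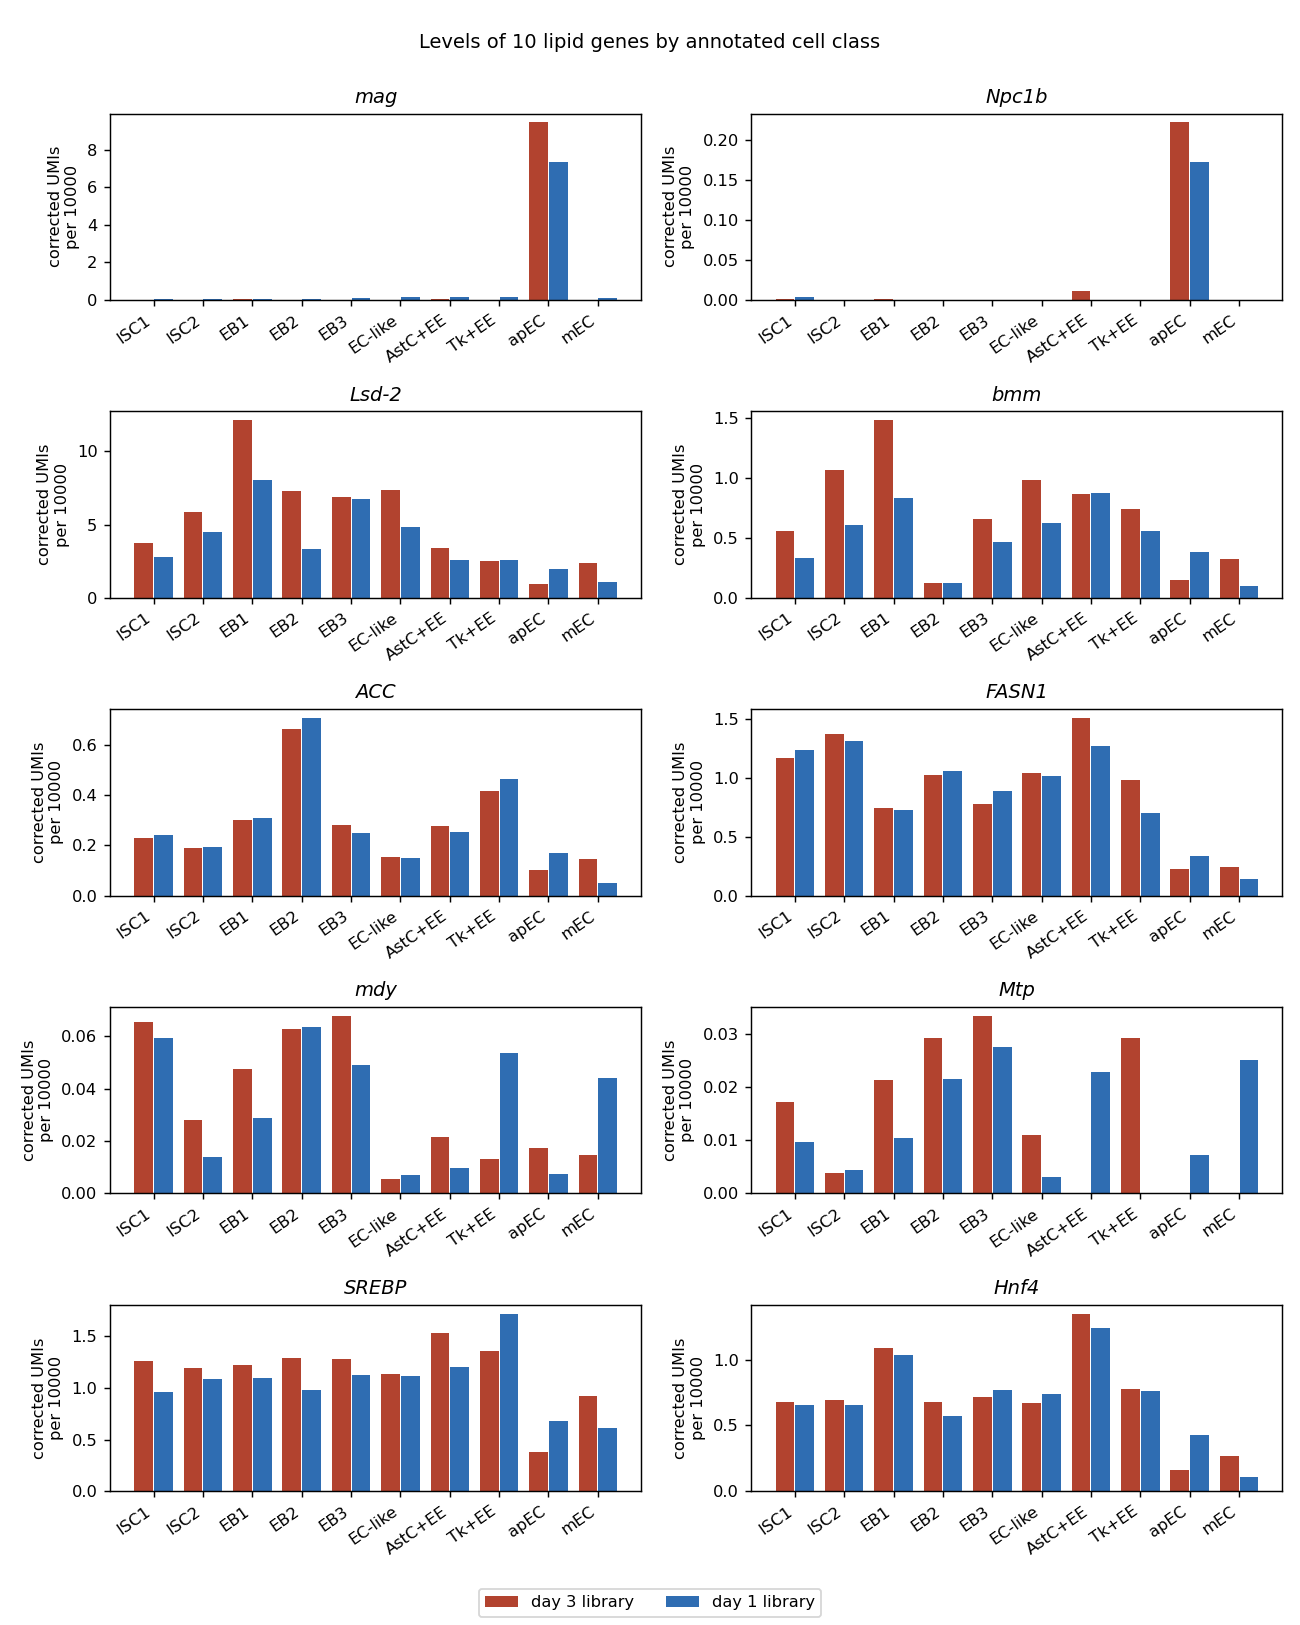
Mean depth-corrected UMIs per 10000 of the 10 genes (vertical axes start at 0 and differ between panels) in the 10 annotated classes, with a bar for the day 3 library left of a bar for the day 1 library; no error bar is drawn because each bar is 1 library. mag reached 9.46 and 7.37 in apEC at day 3 and day 1, and Lsd-2 reached 12.1 and 8.03 in EB1.

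The gene mag encodes a lipase that is secreted into the gut lumen and also acts on cholesterol esters. It lies at chromosome 3L:20460683-20462274 on the plus strand. Its level in apEC was 9.46 per 10000 at day 3 and 7.37 at day 1. Every other class had at most 0.0241 at day 3 and 0.162 at day 1, mEC included, where it was 0 at day 3 and 0.104 at day 1. Expression within apEC was uneven. At day 3 the corrected count of mag was above 0 in 21 of 38 apEC cells, the highest 5 of which held 53.1% of the level. At day 1 it was above 0 in 19 of 43 cells, with 75.8% in the highest 5.

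The order of the ages for mag in enterocytes was not readable. The corrected levels of both enterocyte classes together were 5.99 at day 3 and 4.44 at day 1, or 0.42 on the log2 scale after adding 0.1 to both. Rebuilt counts went the other way, with 96 UMIs in 27 cells at day 3, or 2.84 per 10000 UMIs, and 250 UMIs in 29 cells at day 1, or 6.53 per 10000. The log2 ratio of those sums was -1.20 (-1.55 to -0.85). A single cell held 116 of the 250 UMIs at day 1, and that interval does not cover such spread between cells. Taken over all enterocytes, the deposited values allow 6.02 to 6.11 UMIs per 10000 at day 3 and 3.24 to 3.31 at day 1, so the shallower enterocytes and all enterocytes gave opposite orders.

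Outside enterocytes, mag UMIs were rare, and UMIs of other enterocyte enzymes were found in the same classes. Whether both fell in the same cells was not tested. Among the shallower cells, progenitors (ISC1, ISC2, EB1, EB2 and EB3 together) held 13 mag UMIs in 407 cells at day 3 and 157 in 1035 cells at day 1. Per cell, UMIs of 26 digestive enzyme genes were 5.16 and 15.3 in progenitors at day 3 and day 1, against 2105 and 1941 in apEC. Per 1000 of those enzyme UMIs, mag had 6.19 UMIs (3.30 to 10.6) in progenitors at day 3 and 9.92 (8.43 to 11.6) at day 1. In apEC that ratio came to 2.85 (2.31 to 3.48) for day 3, and to 6.06 (5.33 to 6.86) for day 1. The ratio in progenitors was thus above that in apEC in both libraries, with separate intervals at day 1 and overlapping ones at day 3. Within apEC, 1 cell held 116 of the 247 mag UMIs at day 1, where 8 of 21 cells had any. At day 3 the highest cell held 24 of 96, and 7 of 16 cells had any. The intervals do not cover this spread between cells. All apEC cells together allow 2426 to 2452 mag UMIs at day 3 and 1272 to 1287 at day 1. The apEC ratios thus rest on a small part of them. No mag level outside enterocytes is read here as expression by those cells.

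**Figure D2:**
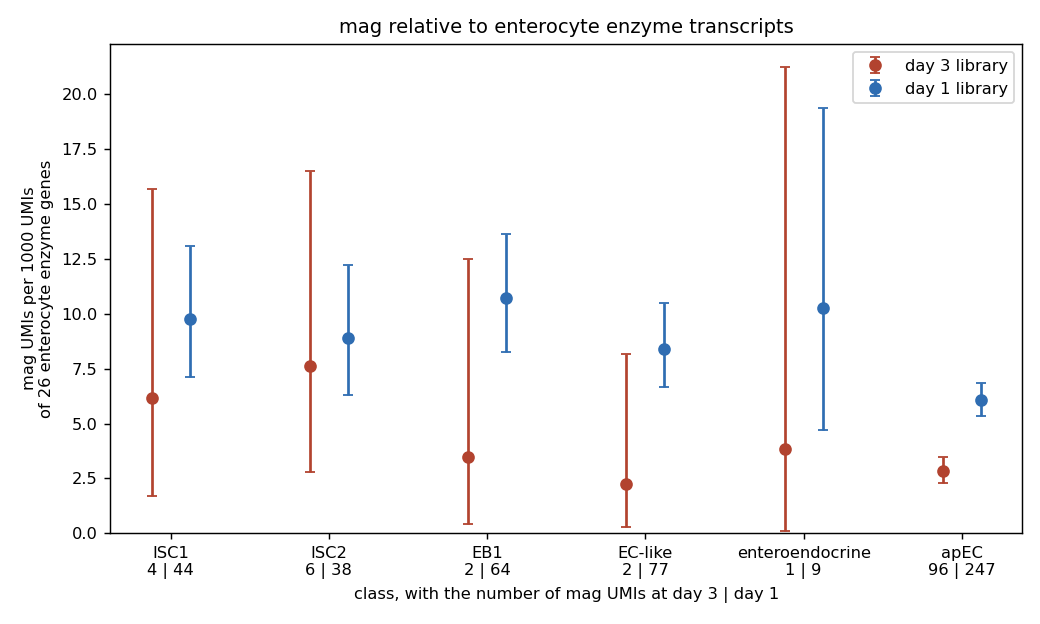
UMIs of mag per 1000 UMIs of 26 enterocyte enzyme genes (vertical axis, from 0) in 6 classes, day 3 left of day 1, in the shallower cells, with Clopper-Pearson 95% intervals; the numbers under each class are its mag UMIs. The classes with few mag UMIs have wide intervals that reach the apEC value of 2.85 at day 3. At day 1 the ISC1, ISC2 and EB1 values, from 8.91 to 10.7, lie above the 6.06 of apEC, with overlapping intervals for ISC2. In apEC at day 1 a single cell held 116 of the 247 mag UMIs.

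The share of cells with a mag UMI gave the same picture. After each of the shallower cells was thinned to 4000 UMIs, mag was detected at day 3 in 37.5% of 16 apEC cells (15.2 to 64.6). The day 1 share was 30% of 20 cells (11.9 to 54.3). In progenitors, which should lack the enzyme, the day 3 share was 0.246% of 406 cells and the day 1 share 2.90% of 1034. Before thinning these apEC cells had median depths of 10553.5 and 12050.5 UMIs, and the progenitors 20374 and 19856. At their own depth, without thinning, 3.19% of progenitors had a mag UMI at day 3 and 13.5% at day 1.

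Npc1b, a sterol transporter related to NPC1 and needed in the midgut for sterol absorption, lies at X:20934869-20939503 on the plus strand. Its level was 0.222 per 10000 in apEC at day 3 and 0.173 at day 1. Of apEC cells, 11 of 38 had a corrected count above 0 at day 3 and 10 of 43 at day 1. In mEC it was 0 in both libraries, and elsewhere it did not pass 0.0107. The counts are few: the deposited values of apEC allow 40 to 52 UMIs at day 3 and 32 to 38 at day 1, and in all progenitors 2 to 16 and 6 to 13. Over the 20 means of class and library, Npc1b and mag had a Pearson correlation of 0.97, which rests on their shared level in apEC. No difference between the ages was detectable for Npc1b at this depth.

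Lsd-2 encodes perilipin 2, a protein that coats lipid droplets and shields them from lipases. It is at X:15069127-15076220 on the minus strand. EB1 had the highest level in both libraries, 12.1 per 10000 at day 3 and 8.03 at day 1. EB3 followed with 6.90 and 6.72, EC-like cells with 7.36 and 4.83, EB2 with 7.26 and 3.33 and ISC2 with 5.88 and 4.46, and the ranges of these 4 neighbours over the 2 libraries overlapped. The level of ISC1 was 3.72 at day 3 and 2.80 at day 1, and AstC+EE (3.42 and 2.57) overlapped with it. Tk+EE cells had 2.49 and 2.56, and the enterocyte classes had the lowest levels, with 2.40 and 1.07 in mEC and 0.947 and 1.95 in apEC. By UMIs Tk+EE stood at 1.90 per 10000 at day 3 and 1.81 at day 1. The first of these was below the 1.97 to 2.25 that mEC allows at day 3.

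Among the shallower EB1 cells, nearly all carried Lsd-2. At 4000 UMIs its day 3 share there was 90% of 70 cells (80.5 to 95.9), and its day 1 share 90.7% of 322 (87.0 to 93.6). EB1 had 399 and 970 cells in all. The shares in ISC1 were 55.0% of 129 cells (46.0 to 63.8) and 50% of 294 (44.1 to 55.9), and in ISC2 they were 82.6% of 190 and 76.5% of 358. For ISC2 the day 3 interval spanned 76.5 to 87.7%, and the day 1 interval 71.8 to 80.8%, above that of ISC1 in both libraries. The shallower ISC1 cells held 2.58 Lsd-2 UMIs per 10000 at day 3 and 2.15 at day 1. All ISC1 cells allow 4.58 to 4.71 and 3.19 to 3.28, so these shares do not stand for the whole class. Over all cells ISC2 was above ISC1 as well, with 6.84 to 6.91 and 4.54 to 4.57. The shallower enterocytes had it in 37.0% of 27 cells at day 3, and in 35.7% of 28 at day 1. Enterocytes had 60 and 72 cells in all. No class here is known to lack Lsd-2, so there is no cell type that gives its background.

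bmm (brummer) is the main triglyceride lipase of fly lipid droplets, a relative of mammalian adipose triglyceride lipase. It lies at 3L:14776496-14786412 on the minus strand. EB1 had 1.49 per 10000 at day 3, the highest level of that library, and 0.832 at day 1. AstC+EE cells had 0.868 and 0.877, the second value being the highest at day 1, ISC2 1.07 and 0.612, EC-like cells 0.982 and 0.621, Tk+EE 0.741 and 0.562, EB3 0.661 and 0.463 and ISC1 0.555 and 0.333. Each of these classes overlapped with the next over the 2 libraries, so their order is loose. apEC had 0.147 and 0.384, overlapping with ISC1, and mEC had 0.326 at day 3 and 0.1 at day 1. The UMIs that the values allow gave another order at day 1. EB1 was then highest with 0.782 to 0.884 per 10000 UMIs, against 0.706 to 0.726 in AstC+EE. Tk+EE had 5 UMIs, or 0.226 per 10000, below the 0.399 to 0.494 of EB3 and the 0.299 to 0.378 of ISC1.

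EB2, whose progenitor markers were also the lowest among stem cell and enteroblast classes, departed from the other enteroblasts in bmm. Its level was 0.125 per 10000 at day 3 and 0.120 at day 1, in 102 and 204 cells, and the median cell had 0 in both libraries. The UMI counts that the deposited values allow were 57 to 200 in EB2 at day 3 and 92 to 283 at day 1, or 0.0817 to 0.287 and 0.0815 to 0.251 per 10000 UMIs. EB1 was bounded by 1.38 and 1.51 at day 3, and by 0.782 and 0.884 at day 1. The highest value that EB2 allows was thus below the lowest of EB1, EB3, ISC1 and ISC2 in both libraries. Enterocytes allow 0.0968 to 0.318 at day 3 and 0.136 to 0.336 at day 1, which overlapped with EB2. Lsd-2 in EB2, at 7.26 and 3.33, was within the span of the other progenitor classes. The 2 droplet genes had a Pearson correlation of 0.57 over the 20 means of class and library, which share libraries and total counts.

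**Figure D3:**
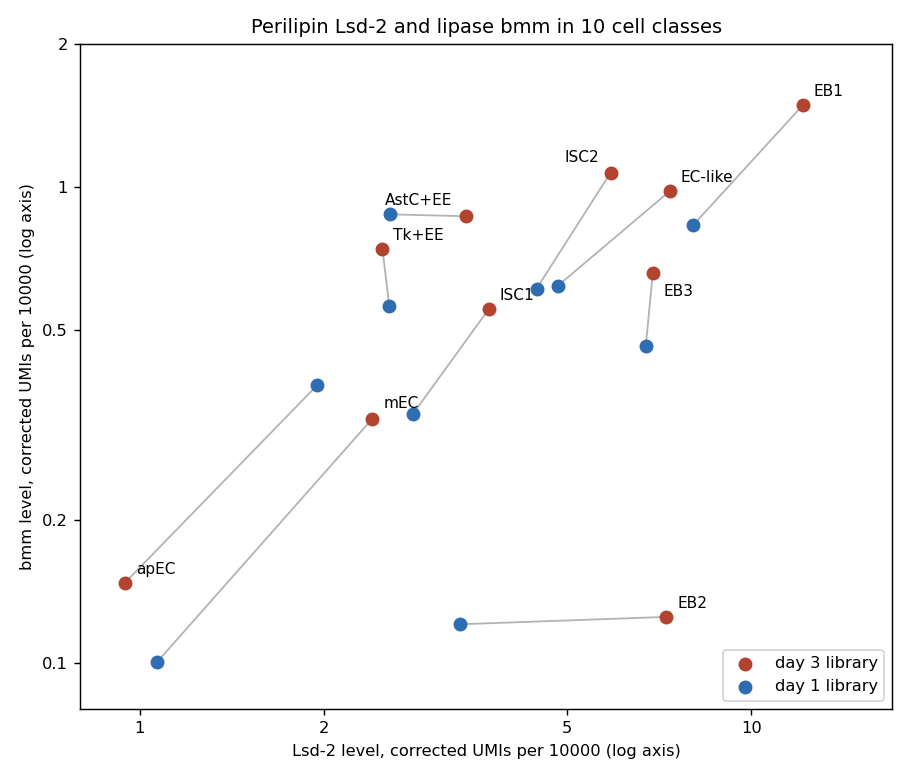
Level of bmm (vertical, log axis) against Lsd-2 (horizontal, log axis), both in depth-corrected UMIs per 10000, in the 10 classes; the red point of each class is the day 3 library, the blue point the day 1 library, and a grey line joins them. EB2 lies at 0.125 and 0.120 for bmm beside 7.26 and 3.33 for Lsd-2, apart from EB1 at 1.49 and 0.832 beside 12.1 and 8.03.

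Detection of bmm followed its levels. At 4000 UMIs it was found in 42.9% of the shallower EB1 cells at day 3 (31.1 to 55.3) and 23.6% at day 1 (19.1 to 28.6). In ISC2 the shares were 37.4% (30.5 to 44.7) and 23.2% (18.9 to 27.9), and in ISC1 18.6% (12.3 to 26.4) and 12.6% (9.02 to 16.9). Between the libraries, these intervals were separate in EB1 and ISC2 and overlapped in ISC1. EB2 had 0 such cells of 5 at day 3, a count compatible with a share as high as 60%, and 1 of 23 at day 1. Enterocytes had 0 of 27 at day 3, compatible with 11.1%, and 1 of 28 at day 1.

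**Figure D4:**
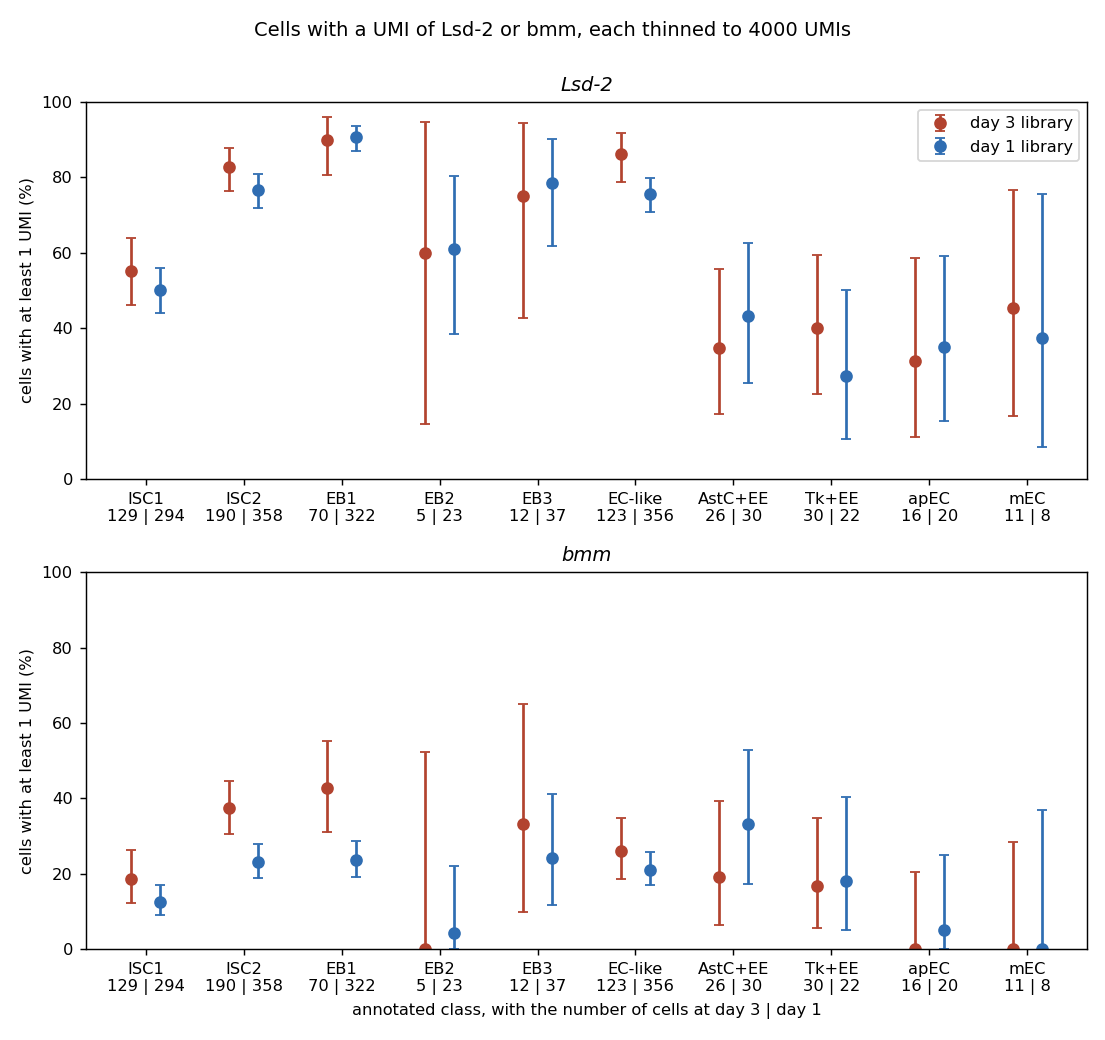
Percent of the shallower cells with at least 1 UMI of Lsd-2 (top) and bmm (bottom), each cell thinned to 4000 UMIs. Vertical axes run from 0 to 100%, with day 3 left of day 1, Clopper-Pearson 95% intervals and the number of cells under each class. For bmm the EB1 values are 42.9% and 23.6% with separate intervals, whereas for Lsd-2 they are 90% and 90.7%, close to the ceiling.

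Fatty acid synthesis starts with acetyl-CoA carboxylase, encoded by ACC (2R:7974115-7991862, minus strand), whose product malonyl-CoA is the substrate of the fatty acid synthase FASN1 (2L:3056598-3068177, plus strand). ACC was highest in EB2, with 0.664 per 10000 at day 3 and 0.706 at day 1. Tk+EE cells came next with 0.416 and 0.462, without overlap with EB2, from 16 UMIs at day 3 and 12 to 13 at day 1. The remaining 8 classes had at most 0.308, the level of EB1 at day 1. By the UMIs that the values allow, EB2 had 0.611 to 0.744 per 10000 at day 3 and 0.692 to 0.820 at day 1, against 0.265 to 0.375 and 0.280 to 0.366 in EB1. EB2 was thus the highest enteroblast class for ACC and the lowest for bmm in both libraries.

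FASN1 did not follow ACC. Its highest levels were 1.51 per 10000 at day 3 and 1.27 at day 1 in AstC+EE and 1.37 and 1.32 in ISC2, which overlapped. By the UMIs that the values allow, AstC+EE had 1.39 to 1.47 per 10000 at day 3, overlapping with the 1.40 to 1.47 of ISC2. At day 1 its 1.11 to 1.15 was below the 1.28 to 1.32 of ISC2 and the 1.19 to 1.27 of ISC1. ISC1 had 1.17 and 1.24, EB2 1.03 and 1.06, EC-like cells 1.04 and 1.02 and EB1 0.746 and 0.731. Within progenitors FASN1 was therefore higher in the stem cell classes than in EB1 in both libraries, the reverse of Lsd-2. The lowest levels were 0.226 and 0.334 in apEC and 0.242 and 0.144 in mEC. The correlation of FASN1 with ACC over the 20 means was 0.53, and with Hnf4 it was 0.84.

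mdy encodes the acyltransferase DGAT1, which adds the last fatty acid of triglyceride, and Mtp the microsomal transfer protein that loads lipid onto lipoproteins. They lie at 2L:16816660-16826964 on the plus strand and 2L:20919094-20922876 on the minus strand. The level of mdy did not pass 0.0677 per 10000 in any class, and that of Mtp did not pass 0.0333. Among the shallower cells, progenitors held 25 UMIs of mdy at day 3 and 64 at day 1, while enterocytes held 0 in both libraries, in 27 and 29 cells. Mtp had 7 and 13 UMIs in progenitors, and 0 and 1 in enterocytes. Neither gene could be ordered over the classes or ages at this depth.

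SREBP encodes the membrane-bound transcription factor that in flies drives genes of fatty acid synthesis. It lies at 3L:19793935-19798979 on the plus strand. It was even over the 8 classes other than enterocytes, with levels from 1.13 to 1.53 at day 3 and from 0.957 to 1.72 at day 1, and each neighbour in the order overlapped with the next. It stood at 0.916 and 0.612 per 10000 in mEC and 0.379 and 0.681 in apEC. SREBP and its target genes FASN1 and ACC had correlations of 0.74 and 0.61 over the 20 means.

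Hnf4 encodes a nuclear receptor that promotes fat breakdown in flies and is needed for normal lipid use in the gut. It lies at 2L:8687226-8709611 on the minus strand. AstC+EE cells had 1.35 per 10000 at day 3 and 1.24 at day 1. EB1 cells had 1.09 and 1.03, the next corrected level without overlap. By the UMIs that the values allow, AstC+EE had 1.39 to 1.44 per 10000 at day 3, above the 1.05 to 1.18 of EB1. At day 1 its 1.03 to 1.07 lay within the 1.01 to 1.11 of EB1. The other 6 classes outside enterocytes lay between 0.674 and 0.777 at day 3 and between 0.573 and 0.769 at day 1. Enterocytes were lowest, with 0.159 and 0.426 in apEC and 0.264 and 0.107 in mEC.

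Mature enterocytes were next set against progenitors, with a gene counted as different when it was at least 2-fold higher or lower in both libraries and reached 0.5 per 10000 in at least 1 of the 4 means. Of the 6 genes tested, 1 was higher, mag, against 24.5% of all genes tested. Lower were 3, Lsd-2, FASN1 and Hnf4, against 30.5% of all genes. The log2 differences from progenitors were 5.73 at day 3 and 4.83 at day 1 for mag. For Lsd-2 they were -2.26 and -1.75, for FASN1 -1.77 and -1.62 and for Hnf4 -1.62 and -1.21. bmm was at -1.74 and -0.90 and SREBP at -0.98 and -0.61, so neither was 2-fold lower in both libraries. With so large a share of all genes differing between these classes, the counts describe the members and single none of them out. With a pseudocount of 1 in place of 0.1, 1 gene was lower in enterocytes in place of 3.

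Enteroendocrine cells differed less from progenitors in these genes. Of the 5 genes tested, 0 were at least 2-fold higher in both libraries, against 18.1% of all genes, and 1 was lower, Lsd-2, against 1.74% of all genes. Its level was 2.97 per 10000 in enteroendocrine cells at day 3 beside 7.48 in progenitors, and 2.57 beside 5.60 at day 1, log2 differences of -1.30 and -1.10. With a pseudocount of 1 it was no longer called, and 0 genes were lower. In EC-like cells 0 of 5 genes were higher and 0 were lower, against 0.281% and 1.8% of all genes. Lsd-2 there was at -0.02 and -0.21 and bmm at 0.05 and 0.06, close to progenitors. EC-like cells also lacked the mag of enterocytes, with 2 UMIs in 123 cells at day 3 and 77 in 357 at day 1.

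The ages were then compared class by class, joining the enteroendocrine classes and the enterocyte classes so that each had at least 50 cells per library. Of 80 pairs of gene and class, 38 reached 0.5 per 10000 in 1 library. A difference past 1.5-fold was found in 7 of the 38 pairs. All 7 were higher at day 3, and all were bmm or Lsd-2. FASN1, ACC, SREBP, Hnf4 and mag had none.

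By class, of 5 genes tested in each, bmm passed in ISC1, against 1.56% of all genes in either direction. The same gene passed in ISC2, against 3.25% of all genes. In EB1 both bmm and Lsd-2 passed, against 4.36% of all genes, and in EC-like cells both passed, against 3.76%. Lsd-2 passed in EB2, against 7.12% of all genes. No member passed in EB3 (5.31% of all genes), in enteroendocrine cells (10.9%) or among the 3 tested in enterocytes (20.8%). With so few genes per class, these counts describe the members and rank nothing.

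For bmm the log2 difference of day 3 over day 1 was 0.77 in EB1, 0.72 in ISC2, 0.60 in ISC1 and 0.59 in EC-like cells, and the nearest value short of the fold was 0.43 in EB3. It was 0.09 in enteroendocrine cells, with 0.807 per 10000 at day 3 and 0.751 at day 1. Summed UMIs of the shallower cells gave log2 ratios of 1.05 in EB1 (0.83 to 1.26), 0.85 in ISC2 (0.64 to 1.06), 0.82 in ISC1 (0.50 to 1.13) and 0.78 in EC-like cells (0.49 to 1.06). In enteroendocrine cells that ratio was 0.03 (-0.69 to 0.76), from 38 UMIs at day 3 and 31 at day 1. Whether the difference between ages itself differed between these classes was not tested.

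For Lsd-2 the difference was 1.10 in EB2, 0.60 in EC-like cells and 0.59 in EB1. ISC1 (0.40) and ISC2 (0.39) were in the same direction without reaching the fold, and EB3 (0.04), enteroendocrine cells (0.20) and enterocytes (-0.10) lay nearer to 0. In EB2 a single cell of 152.5 per 10000 held 20.6% of the day 3 level, and leaving out the highest EB2 cell of both libraries gave a difference of 0.82. The median EB2 cell had 4.80 per 10000 at day 3 and 2.69 at day 1. Over all EB2 cells the values allow 6.17 to 6.40 UMIs per 10000 at day 3, against 3.74 to 3.92 at day 1. Summed UMIs of the shallower cells gave log2 ratios of 0.65 in EB1 (0.57 to 0.72) and 0.69 in EC-like cells (0.59 to 0.79). In enteroendocrine cells they gave 0.66 (0.24 to 1.09), from 137 UMIs at day 3 and 72 at day 1, where the corrected levels gave 0.20.

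**Figure D5:**
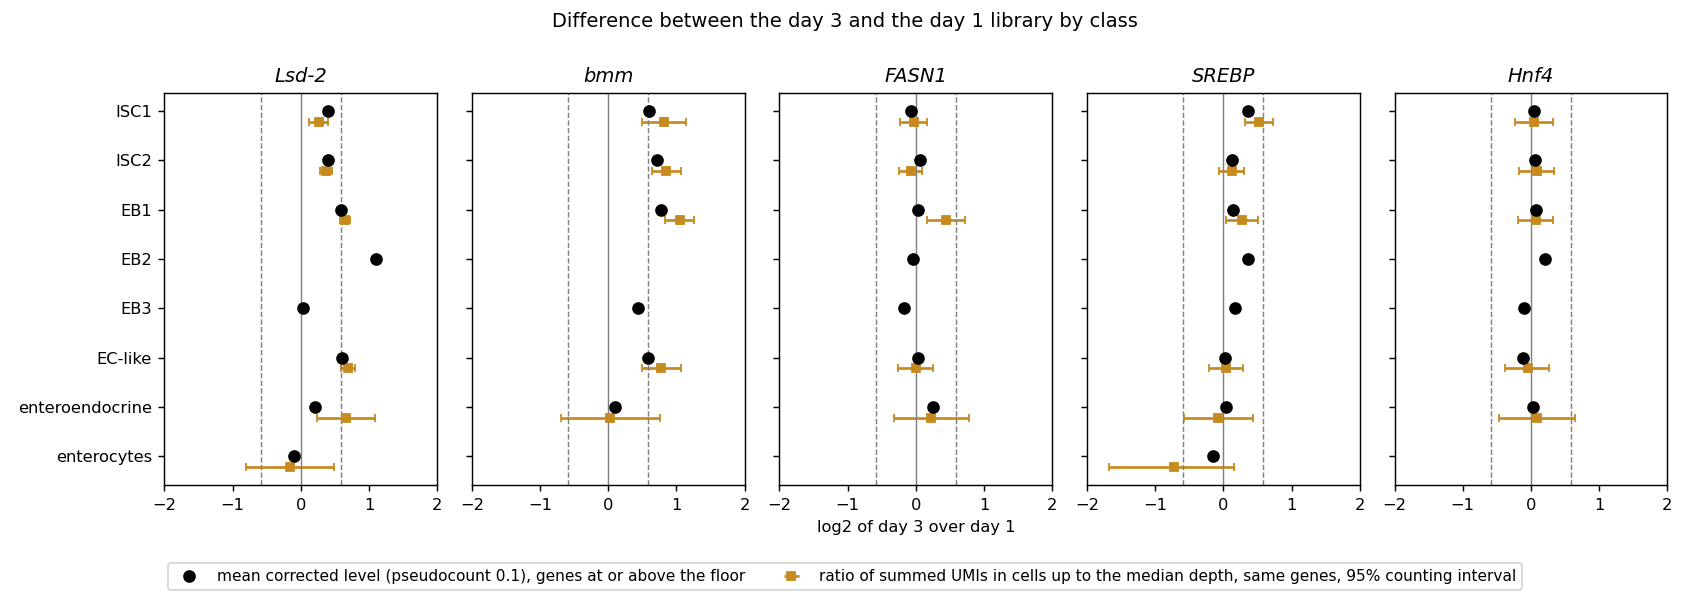
Log2 of day 3 over day 1 (horizontal axis) by class for 5 genes; black points are mean depth-corrected levels after adding 0.1, drawn where a gene reached 0.5 per 10000, and ochre squares are ratios of summed UMIs in the shallower cells with 95% counting intervals, drawn for classes with 20 such cells in each library. Dashed lines mark 1.5-fold. The black points of bmm lie at 0.77 in EB1 and 0.72 in ISC2, and those of FASN1 and Hnf4 between -0.17 and 0.25. The ochre square of FASN1 in EB1 lies at 0.45.

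Several of the 7 differences lay close to the fold, whose log2 is 0.585, and depth and clustering moved with the ages. The median cell of EB1 had 45334 UMIs at day 3 and 34191 at day 1, and the order was the same in ISC1, ISC2, EB2, EB3 and EC-like cells. Among cells of both libraries between 10000 and 40000 UMIs, bmm stood at 0.67 in EB1, 0.74 in ISC2, 0.62 in ISC1 and 0.65 in EC-like cells, and Lsd-2 at 0.60 in EB1. A deposited cluster to which EC-like cells of day 1 but none of day 3 belonged was part of that class, and without it bmm was at 0.53 and Lsd-2 at 0.57, both short of the fold. Without the highest cell of each class and library, 5 of the 7 pairs passed, and bmm in EC-like cells and Lsd-2 in EB1 did not. With means of the deposited log values 4 passed, without bmm in ISC1, ISC2 and EC-like cells, and with a pseudocount of 1 the count of pairs was 1.

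SREBP passed 1.5-fold in no class. Its levels in ISC1 were 1.26 per 10000 at day 3 and 0.957 at day 1, or 0.37 on the log2 scale. Summed UMIs gave 0.53 (0.32 to 0.74) there and 0.28 (0.04 to 0.51) in EB1. FASN1 and Hnf4 lay between -0.17 and 0.25 in the 7 classes where each was tested. In EB1 the summed UMIs of FASN1 gave 0.45 (0.16 to 0.73) where the corrected levels gave 0.03. ACC was tested in EB2 alone, at -0.08. mag was below the floor outside enterocytes, and its few UMIs there were fewer per 10000 at day 3. The log2 ratio of its summed UMIs was -2.30 in ISC1 (-4.24 to -0.84), -1.92 in ISC2 (-3.45 to -0.67), -2.82 in EB1 (-5.90 to -0.91), -3.98 in EC-like cells (-7.06 to -2.08) and -3.44 in enteroendocrine cells (-8.89 to -0.58). UMIs of the 26 digestive enzyme genes per cell were also fewer in each of these classes at day 3, 5.03 against 15.3 in ISC1, and their part in these ratios was not tested.

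Other genes of the same pathways, from lists drawn up with the members, were set beside them. Over all genes and the 8 classes, 4.63% of the 14375 pairs tested were higher and 2.67% lower at day 3 past 1.5-fold, and 52.0% were below 0. The list of droplet and lipolysis genes had 8 members, all with values. The only other gene of it that reached the floor in a progenitor class was Pcyt1, which makes the phosphatidylcholine of the droplet surface. Its level in EB2 was 1.66 per 10000 at day 3 and 1.20 at day 1, and in EB1 0.895 and 0.900. Seipin, needed to form droplets, had 1.09 and 0.992 in mEC and at most 0.0932 in the progenitor classes. Of 8 pairs of other droplet gene and class, 0 passed 1.5-fold. The median log2 difference of the list in EB1 was 0.59 over 3 genes, 2 of them bmm and Lsd-2, beside 0.01 over all genes tested.

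The 14 beta-oxidation genes, all with values, gave 59 pairs of gene and class. The log2 difference was below 0 in 48 of these and above 0 in 11, but 0 were lower past 1.5-fold and 1 was higher. That pair, named after its values were seen, was whd, the carnitine palmitoyltransferase that brings fatty acids into mitochondria, in enterocytes, where it had 1.55 per 10000 at day 3 and 0.706 at day 1. Echs1, an enoyl-CoA hydratase, had 3.36 per 10000 at day 3 and 4.44 at day 1 in EB1. wal, a subunit of the flavoprotein that takes electrons from beta-oxidation, had 2.84 and 3.78 there, and scu, a hydroxyacyl-CoA dehydrogenase, 2.75 and 3.36. The list's median log2 difference was -0.26 in EB1 over 7 genes, beside 0.01 over all genes.

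In the list of lipases and sterol carriers, 21 of 24 genes had values. Outside mag and Npc1b, 11 genes reached 0.5 per 10000 in some class, and 10 of them were highest in an enterocyte class. The lipase CG6295 had 47.9 per 10000 in apEC at day 3 and 66.6 at day 1, and the lipase CG6277 had 33.3 and 112.7 in mEC, where mag was 0 and 0.104. The lipase CG6283 had 23.8 in mEC at day 3, and its level there was higher at day 1. Npc1a, the relative of Npc1b that moves sterol inside cells, did not reach the floor and had 0.284 and 0.270 in ISC1. Npc2e, a small sterol-binding protein, had 14.7 and 27.7 in apEC and was also present in EB2, with 2.24 and 0.872. Npc2a, of the same family, was found in all classes, and in EB1 it had 5.99 at day 3 and 9.34 at day 1. Of 18 pairs of gene and class in this list, 4 were higher and 6 lower at day 3 past 1.5-fold. In enterocytes, where 20.8% of all genes passed, lay 5 of these 10, and 3 of the lower ones were Npc2a in EB1, EB3 and EC-like cells.

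Of the 7 genes for fatty acid and acyl-CoA binding, all with values, 6 reached the floor, and 5 of them were highest in an enterocyte class. The acyl-CoA binding protein gene Acbp5 had 166 per 10000 in apEC at day 3 and 119.7 at day 1, and 35.5 and 34.4 in EB2, against at most 4.21 in the other 8 classes. Acbp2 had 30.4 and 34.2 in apEC and 1.56 and 0.983 in EB2. fabp, the fatty acid binding protein gene, was found in all classes, with 3.07 and 8.69 in apEC and 3.38 and 4.40 in EB1, and Acbp1 likewise, with 1.22 and 1.76 in apEC. Of 32 pairs in that list, 4 were higher and 3 lower at day 3, all but 1 of them in EB2, enteroendocrine cells and enterocytes, where 7.12%, 10.9% and 20.8% of all genes passed. The lipoprotein receptor LpR2 had 1.18 in EB2 at day 3 and 0.606 at day 1, its highest level in both libraries. Its relative LpR1 had 0.269 and 0.211 in apEC, and apolpp, which encodes the main lipoprotein of fly blood, 1.09 and 0.576 in Tk+EE.

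The synthesis and assembly lists differed little between the ages, as FASN1 and ACC did. Of 33 pairs of other fatty acid synthesis genes and classes, 1 was higher and 1 lower past 1.5-fold, both in enterocytes: Men-b, a malic enzyme gene, had 1.21 per 10000 at day 3 and 0.712 at day 1, and Desat1, a desaturase gene, had 0.571 and 1.04. Within that list ATPCL, the ATP citrate lyase gene, had 1.68 and 1.48 in EB1 and the elongase gene Baldspot 1.63 and 1.71, while AcCoAS (acetyl-CoA synthetase) had 1.54 and 1.04 in apEC and Men, the other malic enzyme gene, 1.59 and 1.15 in AstC+EE. Of 25 pairs of other triglyceride assembly genes, 0 were higher and 2 lower. The acyltransferase gene Agpat3 had 0.978 and 1.16 in EB1 and Lpin 0.915 and 0.742, while Agpat4 had 1.66 and 2.25 in apEC, Agpat2 1.35 and 1.32 in mEC, and Gpat4 1.11 and 0.546 in AstC+EE. Of 13 pairs of other regulators, 1 was higher and 2 lower. SCAP, which escorts SREBP, had 0.731 and 0.569 in EB1, and foxo, a transcription factor restrained by insulin, 0.881 and 0.485 in Tk+EE. sug, a sugar-responsive transcription factor, had 0.897 per 10000 in EB2 at day 3 and 0.897 at day 1, against at most 0.107 in the other progenitor classes.

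The genes whose levels ran most like each member over the 20 means, among 3527 candidates, were as follows. For mag they were the protease genes Jon99Ci (r = 0.996), epsilonTry (0.992) and CG12374 (0.992), and for Npc1b they were CG8773, Cyp4d1 and CG14205 (0.998 to 0.999), all with their level in apEC. For Lsd-2 they were moody (0.933), be and CG42674 (0.928), and for bmm unk (0.923), CG13868 and CG15309 (0.908). FASN1 ran most like mnb (0.971), Dbp80 and bel (0.967), and ACC like Lnpk (0.952), dsd and Pka-R1 (0.898). SREBP ran most like CycT (0.935), RASSF8 and Lpin (0.922), the last encoding lipin, an enzyme of triglyceride assembly. Hnf4 ran most like Gprk2 (0.957), Rab8 and Scamp (0.949). For mdy (AdSL, 0.888, CG7182 and Plap) and Mtp (nes, 0.699, yip2 and RtcB) the likeness rests on levels near 0. These means share libraries and total counts, and the correlations are a description.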

How the data were processed

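Droplet libraries of dissociated midgut were made with the Chromium v3.1 kit, per the labels. The submitters' processing notes name the genome build BDGP6 and Cell Ranger 6.0.1. The aligner settings, annotation and cell filters are not given in the sources used here. The deposited expression table holds natural log values, ln of 1 plus a whole number. In all 4184 cells these add up to a deposited score, the depth-corrected total per cell, so they are corrected counts and not raw UMIs. The deposited cell table, whose column names are those of Seurat and SCTransform per the file headers, gave the total count, the percent of mitochondrial counts, the class of each cell and a singlet call for all of them, so no doublet caller was run.

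Levels are means over cells of the corrected count per 10000 of the cell's corrected total. For the 2092 cells at or below median depth, raw UMIs were rebuilt by undoing that correction, fitting 3 unknowns for every gene. Their sum over the deposited total had a median ratio of 0.993 (0.914 to 1.07). Of 9607 genes, 8993 followed the fit in each of those cells, and so did the members, apart from Npc1b in 1 cell. In deeper cells the values allow a range of UMIs, whose ends are given.

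Ages were compared by log2 of day 3 over day 1 after adding 0.1 to both levels, a scale that understates the change of low genes. Genes with at least 0.5 per 10000 in 1 library were counted past 1.5-fold. Shares of cells with a UMI were taken in the rebuilt cells alone, those with at most 28085.5 UMIs. Each was thinned to 4000 UMIs, and cells with fewer than 4000 were left out. Alternatives were a pseudocount of 1, rebuilt UMIs, sums over cells, leaving out the highest cell, log means, no floor, a fold of 2, EC-like cells outside 1 cluster and a depth of 2000 UMIs. UMI ranges in all cells, a band of 10000 to 40000 UMIs and alternatives for the counts of lower members were added after seeing the data. No test was made, since each age had 1 library. The members and lists were chosen with earlier results of these data known. All members are named. Genes of other lists are named where they were among the highest 2 of their list in a class or differed one way in 4 classes, and for each member the 3 most alike genes are given. The scripts were tested on simulated data and used Python 3.11.15, NumPy 2.4.6, pandas 2.3.3, SciPy 1.17.1, numba 0.67.0 and matplotlib 3.10.9.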

Additional observations from a re-analysis of the deposited data

How the results depend on the processing

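The 7 pairs of gene and class that differed past 1.5-fold between the ages became 1 with a pseudocount of 1 and 1 with a fold of 2, a pseudocount of 1 being about as large as the bmm levels themselves. Other alternatives gave 8 pairs with rebuilt UMIs, 7 with sums over cells, 5 without the highest cell and 10 with no floor. With means of the deposited log values, 4 of the 7 pairs passed the fold. In each of these the 7 pairs were higher at day 3 wherever they had a value. The counts of members at least 2-fold higher in enterocytes, enteroendocrine cells and EC-like cells than in progenitors, 1, 0 and 0, did not change under the alternatives run. The counts at least 2-fold lower, 3, 1 and 0, became 1, 0 and 0 with a pseudocount of 1; under the other alternatives the first was 3 or 4 and the others did not change, a comparison added after seeing the data. Of the single differences between ages, 34 of 38 shifted by less than their counting interval with a pseudocount of 1, and 25 of the 28 with rebuilt UMIs did. mag in enterocytes, short of the fold, was at -0.65 with rebuilt UMIs and -1.05 between 10000 and 40000 UMIs, against 0.42 in all cells. Among shares of cells with a UMI, 81 of 200 lay outside their counting interval when cells were thinned to 2000 UMIs and 89 of 200 at their own depth. No paired analysis was possible because each age had 1 library and the labels give no replicate numbers. Shallow classes, such as Tk+EE, limit what can be seen of bmm, ACC, mdy, Mtp and Npc1b.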
